A study of Oryza sativa with 8 samples.

Results

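Described here are 161 rice genes that lie in a run of neighbouring loci on chromosome 1 and in another on chromosome 2, measured in the roots of 2 lines that differ in cold tolerance. The members are the IDs from LOC_Os01g08710 to LOC_Os01g09650 and from LOC_Os02g05340 to LOC_Os02g06650 with a mean normalised read count of at least 1 over all libraries. That gave 62 members on chromosome 1 and 99 on chromosome 2, out of 42189 IDs in the authors' deposited tables, of which 27328 had such a mean. A further 34 IDs in the ranges lay under that mean, 11 of them at 0. The runs had been chosen by the deposited line difference at 28 °C, because genes that differ between the lines at 28 °C lie close together in them, so every value of the lines at 28 °C is a description and supports nothing.

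The samples were roots of rice (Oryza sativa, indica) seedlings of about 30 days. Both are breeding lines whose names begin with IRGA 959 and share a longer stem. The name of the tolerant line ends in 1-4-A and that of the sensitive line in 1-4-D-1-CA-1. The 4 groups were tolerant roots at 10 °C, sensitive roots at 10 °C, tolerant roots at 28 °C and sensitive roots at 28 °C, with 2 libraries each and 4 plants pooled per library. How long the plants stood at 10 °C is unclear, since the extraction protocol says 24 h and the treatment protocol up to 10 days. Each line stands for itself alone, since the study holds 1 tolerant and 1 sensitive line.

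Rice locus IDs of this kind carry the chromosome and a number that increases along it, so loci with close numbers are close neighbours. Lines bred from a common source carry the same alleles over most of the genome and differ in blocks that were inherited together. Genes within such a block can differ between the lines in their regulatory or coding sequence, in either direction. The function of the members is not given here, because none of their IDs was paired with a name or product in the sources used, and no sequence or position in bases is printed for the same reason.

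The library size factors, which measure relative depth, lay between 0.679 and 0.991 for the 10 °C libraries and between 1.10 and 1.25 for the 28 °C libraries. The members took 0.935% of a summed mean of 19350909 normalised counts. The libraries' own values were not used here, so the spread between replicates enters only through the standard errors (SE) of the authors' deposited fit, and whether single libraries of the groups overlap is not given. The true level of a group observed at 0 reads may lie above 0, so a floor of 3 expected reads over the group was used. That floor is 1.66 normalised counts in the tolerant and 1.83 in the sensitive line at 10 °C. At 28 °C it is 1.22 in the tolerant and 1.28 in the sensitive line. Levels are normalised counts, not per gene length, and are compared between groups within a gene. Less RNA per cell and fewer cells of a type cannot be told apart in them. As a check of the tissue, 3 loci written from general knowledge as root transporters had summed levels of 4135 in the tolerant and 6875 in the sensitive line at 10 °C, and 48861 in the tolerant and 30679 in the sensitive line at 28 °C. The 5 loci written as shoot photosynthesis genes were not at 0, with summed levels of 1467 in the tolerant and 4093 in the sensitive line at 10 °C, and 3039 in the tolerant and 2585 in the sensitive line at 28 °C, and single loci from 84.0 to 2831. The part of these loci in the differences below was not tested.

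At 10 °C the lines differed at 24 of the 148 members that had an adjusted p in the authors' deposited table, 10 higher and 14 lower in tolerant roots. That is 16.2% of the members tested, against 2.90% of all 23446 genes tested in that comparison. By direction, the background was 1.31% of genes higher and 1.60% lower in tolerant roots. The median log2 difference of the tested members was -0.02, and that of all genes tested was -0.00, so the members had no common direction. The 10 °C libraries are not those on which the runs were picked. The same fit and the same estimate of the spread per gene cover all 8 libraries, however, and the 10 °C results were also known when the genes were picked. Of the 24 members, 13 were also among the 28 °C calls for which the runs were picked. The share at 10 °C is therefore not independent of that choice. At 28 °C the authors' deposited table called 18 members, 9 in each direction, where 0.765% of all genes tested were called.

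On chromosome 1 an unbroken row of 4 neighbours, LOC_Os01g08860, LOC_Os01g08870, LOC_Os01g08880 and LOC_Os01g08890, was called at 10 °C, all lower in tolerant roots. LOC_Os01g08890 stood at 151 normalised counts in the tolerant and 4929 in the sensitive line at 10 °C, and at 311 in the tolerant and 1488 in the sensitive line at 28 °C. Its log2 difference at 10 °C was -5.03 ± 0.47 (SE) in the authors' deposited table (Wald test, adjusted p = 1.5e-22). The sensitive roots were thus the higher ones at both temperatures, with the wider gap in the cold. LOC_Os01g08860 stood at 5.12 in the tolerant and 289 in the sensitive line at 10 °C, and at 3.23 in the tolerant and 160.1 in the sensitive line at 28 °C. Its log2 differences in the authors' deposited table were -5.82 ± 0.79 at 10 °C (Wald test, adjusted p = 1e-10) and -5.63 ± 0.81 (SE) at 28 °C.

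Both inner neighbours were nearly silent in tolerant roots in the cold. LOC_Os01g08880 had 1 read over the group in tolerant roots at 10 °C and 142 normalised counts in sensitive roots, a ratio of 257 in favour of the sensitive line (95% exact counting interval 45.7 to 10206). LOC_Os01g08870 had 0 reads in tolerant roots at 10 °C and 28.7 normalised counts in sensitive roots, at least 17.3-fold lower by the floor of 3 reads over the group. At 28 °C the same genes stood at 9.20 and 3.59 normalised counts in tolerant roots, against 101 and 29.8 in sensitive roots, and neither was called there. Their log2 differences at 10 °C in the authors' deposited table were -7.99 ± 1.76 and -7.14 ± 1.86 (SE), so the size is uncertain while the direction passed (Wald test, adjusted p = 0.000637 and 0.00807). At 28 °C they were -3.46 ± 1.1 and -3.05 ± 1.27. The change in this gap, the log2 difference at 10 °C minus that at 28 °C, was -4.52 ± 2.08 and -4.09 ± 2.26. It did not pass a direct test, called the derived Wald test below (adjusted p = 0.511 and 0.684). LOC_Os01g08950, 2 members further on, was also lower in tolerant roots at 10 °C, with 4.99 normalised counts in the tolerant and 51.4 in the sensitive line (deposited Wald test, adjusted p = 0.00378).

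**Figure D1:**
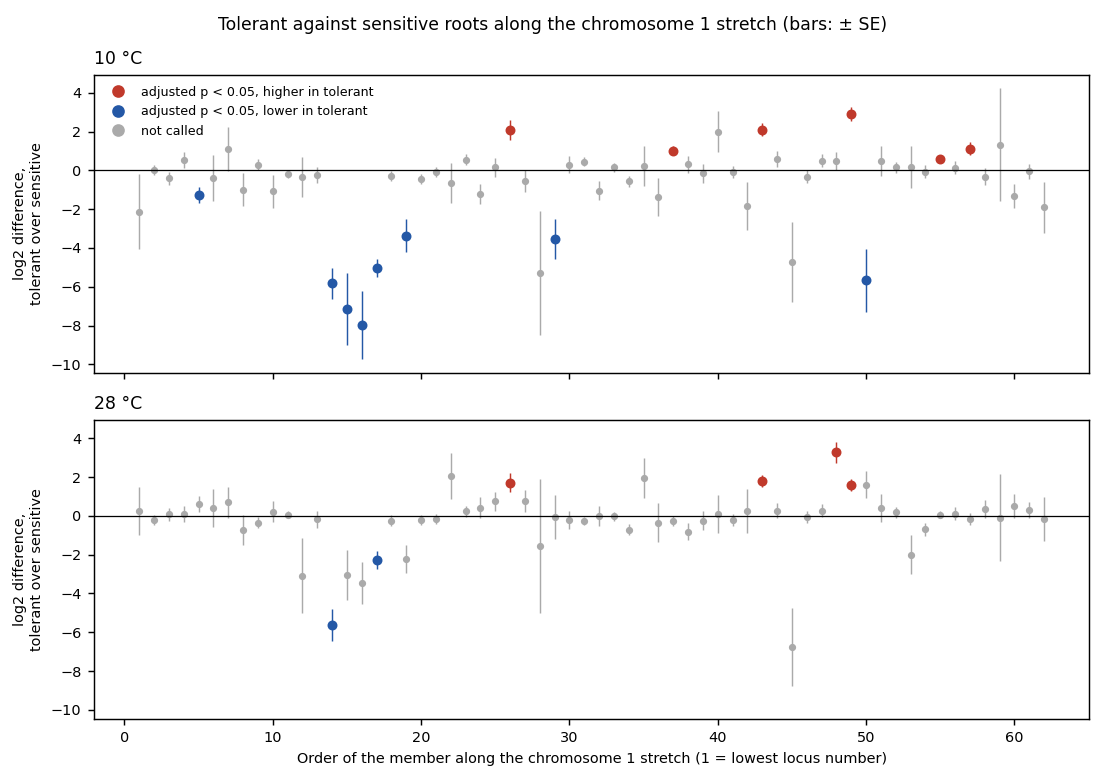
Log2 difference of tolerant over sensitive roots (y axis, ± SE from the authors' deposited tables) for the 62 chromosome 1 members in locus order (x axis), at 10 °C above and 28 °C below. Coloured points passed an adjusted p of 0.05: at 10 °C 6 were higher and 8 lower in tolerant roots, and 4 of the lower ones stand side by side.

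Higher in tolerant roots were members further along the chromosome 1 run. LOC_Os01g09370 stood at 942 normalised counts in the tolerant and 220.4 in the sensitive line at 10 °C, and at 1073 in the tolerant and 309 in the sensitive line at 28 °C. Its log2 difference of 2.10 ± 0.32 (SE) at 10 °C in the authors' deposited table passed the Wald test (adjusted p = 3.19e-08). LOC_Os01g09030 followed the same pattern, with 129 in the tolerant and 30.6 in the sensitive line at 10 °C, and 293 in the tolerant and 88.9 in the sensitive line at 28 °C (adjusted p = 0.00342 at 10 °C in the deposited Wald test). In both genes the tolerant line was the higher one at either temperature. LOC_Os01g09460 stood at 220.1 in the tolerant and 29.1 in the sensitive line at 10 °C, and at 685 in the tolerant and 227 in the sensitive line at 28 °C, with a log2 difference of 2.92 ± 0.37 (SE) at 10 °C (deposited Wald test, adjusted p = 1.51e-12).

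The members on either side of LOC_Os01g09460 were each called at 1 temperature. LOC_Os01g09450 was called at 28 °C alone, with 204 in the tolerant and 145 in the sensitive line at 10 °C, and 107 in the tolerant and 11.0 in the sensitive line at 28 °C. LOC_Os01g09470 was called at 10 °C alone, with 0 reads in tolerant roots and 10.3 normalised counts in sensitive roots at 10 °C, and 54.5 in the tolerant and 17.9 in the sensitive line at 28 °C. It was thus at least 6.24-fold lower in tolerant roots at 10 °C by the floor over the group (deposited Wald test, adjusted p = 0.0213), while the tolerant line had the higher level at 28 °C, where it did not pass.

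Another 5 chromosome 1 members were called at 10 °C alone, with log2 values at 28 °C between -0.27 and 0.60 in the authors' deposited table. LOC_Os01g09100 had 13.7 normalised counts in the tolerant and 159.7 in the sensitive line at 10 °C, against 5.33 in the tolerant and 5.57 in the sensitive line at 28 °C (deposited Wald test at 10 °C, adjusted p = 0.0252). LOC_Os01g08780, with 77.1 in the tolerant and 187 in the sensitive line at 10 °C, was likewise lower in tolerant roots (deposited Wald test, adjusted p = 0.0461). The 10 °C calls of LOC_Os01g08780 and LOC_Os01g09580 were lost when p-values were adjusted over every gene with a p. The other three were higher in tolerant roots: LOC_Os01g09280 at 922 in the tolerant and 455 in the sensitive line at 10 °C, LOC_Os01g09580 at 211 in the tolerant and 97.8 in the sensitive line, and LOC_Os01g09560 at 6892 in the tolerant and 4516 in the sensitive line. Their log2 differences at 10 °C were 1.02 ± 0.25, 1.11 ± 0.33 and 0.61 ± 0.18 (SE) in the authors' deposited table (Wald test, adjusted p = 0.00281, 0.0357 and 0.0311). Of the 5 members, the change in the gap with temperature passed for LOC_Os01g09280 alone (derived Wald test, adjusted p = 0.0445). It did not pass for LOC_Os01g09100, LOC_Os01g08780, LOC_Os01g09580 and LOC_Os01g09560 (derived Wald test, adjusted p = 0.466, 0.1, 0.239 and 0.533).

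On chromosome 2 the clearest member was LOC_Os02g06170, which was read in tolerant roots alone. It stood at 85.4 normalised counts in tolerant roots at 10 °C and 113 in tolerant roots at 28 °C, against 0 reads in sensitive roots at both temperatures. By the floor of 3 reads over the group its level in tolerant roots was at least 46.6-fold higher at 10 °C (deposited Wald test, adjusted p = 4.33e-06) and at least 88.1-fold higher at 28 °C. LOC_Os02g05970 stood at 295 in the tolerant and 19.1 in the sensitive line at 10 °C, and at 202 in the tolerant and 11.8 in the sensitive line at 28 °C. Its log2 differences were 3.95 ± 0.56 at 10 °C (Wald test, adjusted p = 1.13e-09) and 4.10 ± 0.57 (SE) at 28 °C in the authors' deposited table. Both genes were higher in the tolerant line at both temperatures, and the size for LOC_Os02g06170 is known only as a lower bound.

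The remaining chromosome 2 members higher in tolerant roots at 10 °C were the neighbours LOC_Os02g05790 and LOC_Os02g05810. The first stood at 423 in the tolerant and 119 in the sensitive line at 10 °C, and at 543 in the tolerant and 228 in the sensitive line at 28 °C. The second stood at 75.9 in the tolerant and 9.46 in the sensitive line at 10 °C, and at 82.7 in the tolerant and 14.3 in the sensitive line at 28 °C. Their log2 differences at 10 °C were 1.83 ± 0.26 and 3.00 ± 0.65 (SE) in the authors' deposited table (Wald test, adjusted p = 1.55e-09 and 0.000467). The member just before them, LOC_Os02g05780, went the other way, with 295 in the tolerant and 796 in the sensitive line at 10 °C, and 488 in the tolerant and 1625 in the sensitive line at 28 °C (deposited Wald test at 10 °C, adjusted p = 0.00191).

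**Figure D2:**
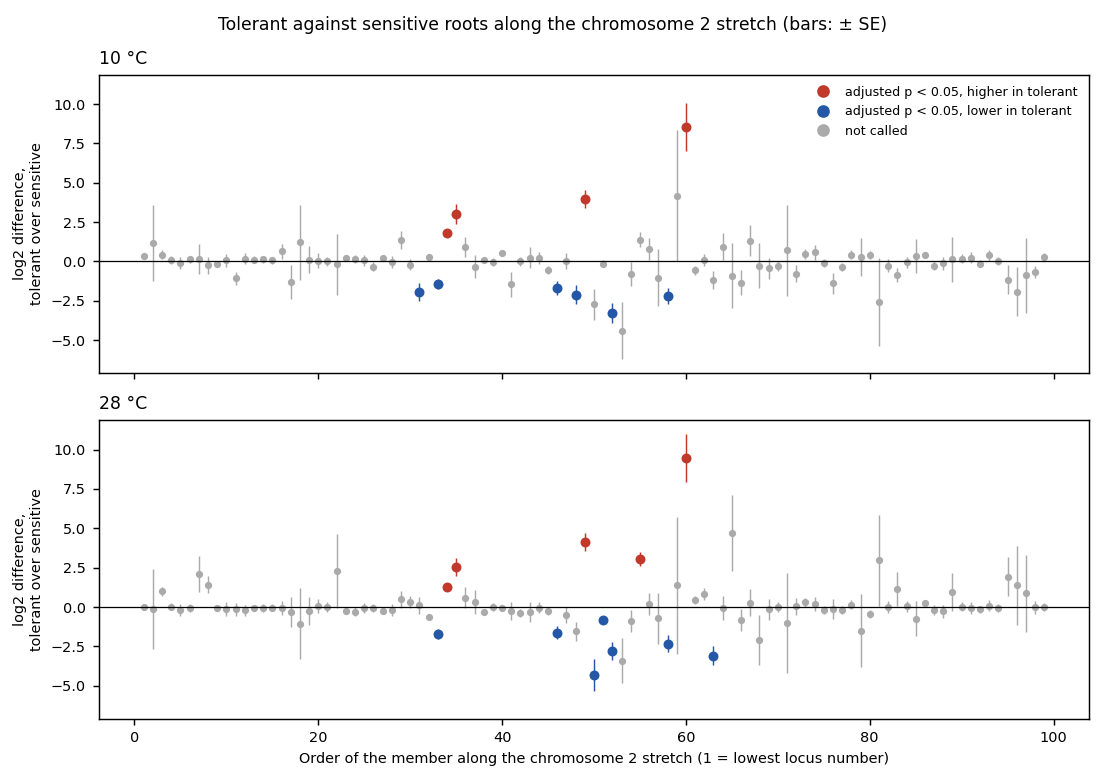
Log2 difference of tolerant over sensitive roots (y axis, ± SE from the authors' deposited tables) for the 99 chromosome 2 members in locus order (x axis), at 10 °C above and 28 °C below. Coloured points passed an adjusted p of 0.05: all but LOC_Os02g05744 sit in the middle of the run, they point both ways, and the 36 members after LOC_Os02g06200 have no call at either temperature.

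Lower in tolerant roots at 10 °C were 6 chromosome 2 members, with log2 differences of -3.26 to -1.43 in the authors' deposited table. LOC_Os02g06030 had 10.2 normalised counts in the tolerant and 97.7 in the sensitive line at 10 °C, and 15.4 in the tolerant and 105.5 in the sensitive line at 28 °C (deposited Wald test at 10 °C, adjusted p = 3.89e-05). LOC_Os02g06150 had 39.4 in the tolerant and 180.0 in the sensitive line at 10 °C, and 36.8 in the tolerant and 184 in the sensitive line at 28 °C (deposited Wald test at 10 °C, adjusted p = 0.00317). In LOC_Os02g05940 the levels were 28.1 in the tolerant and 90.6 in the sensitive line at 10 °C, and 37.9 in the tolerant and 117 in the sensitive line at 28 °C (deposited Wald test at 10 °C, adjusted p = 0.00692). The change in the gap between the lines from one temperature to the other did not pass for any of these, at -0.49 ± 0.85 for LOC_Os02g06030, 0.13 ± 0.75 for LOC_Os02g06150 and -0.06 ± 0.59 for LOC_Os02g05940 (log2, SE). This change, the log2 difference at 10 °C minus that at 28 °C, equals the difference between the cold responses of the lines and is called the derived Wald test where a p is given for it. LOC_Os02g05960 and LOC_Os02g05744 were called at 10 °C alone (deposited Wald test, adjusted p = 0.0216 and 0.0313), with 43.8 and 38.7 normalised counts in tolerant roots against 187 and 146 in sensitive roots. The change in the gap did not pass for either (derived Wald test, adjusted p = 0.978 and 0.328).

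Called at 28 °C alone were LOC_Os02g05980, LOC_Os02g06010, LOC_Os02g06090 and LOC_Os02g06200. LOC_Os02g05980 stood at 65.2 in the tolerant and 427.5 in the sensitive line at 10 °C, and at 22.5 in the tolerant and 446 in the sensitive line at 28 °C. Its log2 difference at 10 °C of -2.71 ± 0.99 (SE) in the authors' deposited table did not pass (Wald test, adjusted p = 0.123). LOC_Os02g06090 stood at 50.2 in the tolerant and 19.4 in the sensitive line at 10 °C, and at 147 in the tolerant and 17.9 in the sensitive line at 28 °C. LOC_Os02g06200 stood at 29.3 in the tolerant and 66.4 in the sensitive line at 10 °C, and at 19.4 in the tolerant and 164 in the sensitive line at 28 °C. LOC_Os02g06010 stood at 361 in the tolerant and 398 in the sensitive line at 10 °C, and at 387.5 in the tolerant and 700.5 in the sensitive line at 28 °C, and the change in the gap did not pass (0.71 ± 0.33, SE; derived Wald test, adjusted p = 0.51). Nor did it pass for LOC_Os02g05980 (1.59 ± 1.4), LOC_Os02g06090 (-1.67 ± 0.65) or LOC_Os02g06200 (1.9 ± 0.82, log2, SE). For these the derived Wald test gave adjusted p = 0.921, 0.321 and 0.455. All 4 genes kept the sign of the 28 °C difference at 10 °C.

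**Figure D3:**
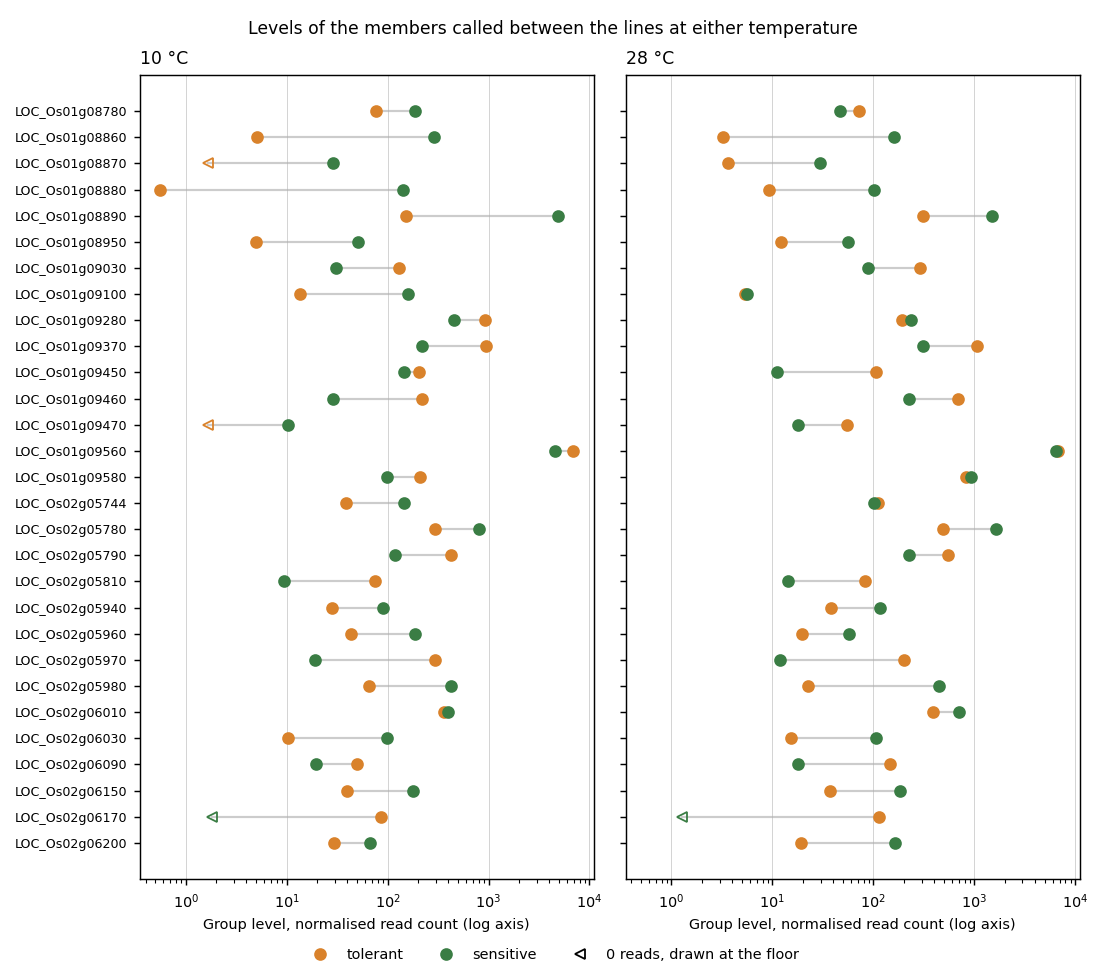
Group levels in normalised read counts (log x axis) of the 29 members called between the lines at either temperature, at 10 °C on the left and 28 °C on the right, with open triangles at the floor of 3 reads where a group had 0 reads. LOC_Os02g06170 is at the floor in sensitive roots in both panels, and LOC_Os01g08870 and LOC_Os01g09470 are at the floor in tolerant roots at 10 °C.

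Both runs together had 13 members called at both temperatures, all in the same direction, 7 higher and 6 lower in tolerant roots. They were 72.2% of the 18 called at 28 °C and 54.2% of the 24 called at 10 °C. Over all genes, 147 were called at both temperatures in the same direction, which is 69.7% of the 211 called at 28 °C, 21.6% of the 681 called at 10 °C and 0.627% of the 23446 tested at both. The members' share of the 28 °C calls was thus near that of all genes. All 18 members called at 28 °C had the same sign at 10 °C, and 19 of the 24 called at 10 °C had the same sign at 28 °C. Over all genes the sign was kept by 194 of the 211 called at 28 °C and 424 of the 681 called at 10 °C. The runs were picked for their 28 °C calls, which by itself raises the members' shared calls and kept signs among the 10 °C calls. Those values are therefore a description and support nothing. On chromosome 2 the shared calls were 8 of the 12 at 28 °C and 8 of the 10 at 10 °C, and on chromosome 1 they were 5 of the 6 at 28 °C and 5 of the 14 at 10 °C. No test was made of the difference between the chromosomes. Among the 13, a direct test of the change in the gap with temperature passed for LOC_Os01g08890 alone (derived Wald test, adjusted p = 0.0129), with adjusted p from 0.245 to 0.998 for the other 12.

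**Figure D4:**
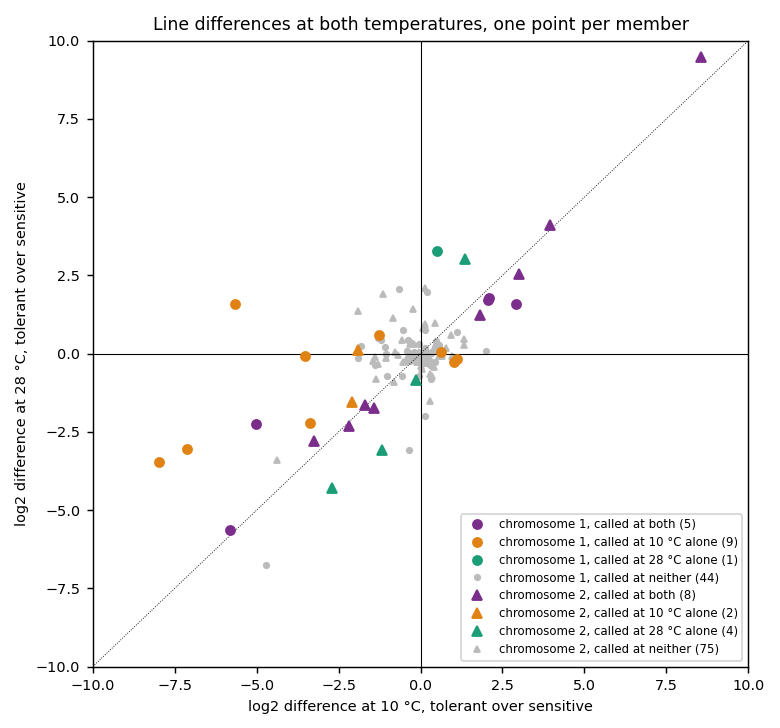
Log2 difference of tolerant over sensitive roots at 10 °C (x axis) and at 28 °C (y axis), 1 point per member with an adjusted p at 10 °C, with the dotted line marking equal differences. The 13 members called at both temperatures lie in the lower left and upper right parts, and LOC_Os01g09470 is the called point furthest to the upper left, with -5.67 at 10 °C and 1.60 at 28 °C.

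The place of the calls within the runs was described by cutting each run at its first and last 28 °C call, after the values had been seen. The outer parts therefore hold no 28 °C call by construction, and members called at both temperatures carry this over, so the 10 °C shares are a description with no test. On chromosome 2 the calls at 28 °C run from LOC_Os02g05780 to LOC_Os02g06200, 31 members. In the 10 °C libraries that inner part held 9 calls among 29 members tested (31.0%), with a median absolute log2 difference of 0.92. The 32 members before it held 1 call among 29 tested (3.45%, median 0.17), and the 36 members after it held 0 among 31 tested in the deposited table made with DESeq2 (median 0.40), with 3 at an unadjusted p below 0.05. On this chromosome the outer parts were thus near or below the background of 2.90%. On chromosome 1 the inner part from LOC_Os01g08860 to LOC_Os01g09460 held 10 calls among 35 members tested at 10 °C (28.6%), the 13 members before it 1 among 12 (8.33%), and the 13 members after it 3 among 12 (25.0%). On chromosome 1 the part after the last 28 °C call thus had a share near that of the inner part.

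Neighbouring called members could point the same way or opposite ways. Of 14 chromosome 1 members called at 10 °C, 4 pairs were direct neighbours in the order of members, 3 with the same and 1 with opposite directions. Among 10 chromosome 2 members, 3 pairs were direct neighbours, 1 with the same and 2 with opposite directions. LOC_Os02g05960, lower in tolerant roots at 10 °C, stands beside LOC_Os02g05970, which was higher. The sources used here do not say how reads matching several copies were treated.

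Outside the ranges the shares of called genes were as follows. The 100 genes of at least the same mean before the chromosome 1 run held 2 calls among 91 tested at 10 °C (2.20%), and the 100 after it 2 among 79 (2.53%). Around the chromosome 2 run the counts were 0 among 91 before it in the deposited DESeq2 table, with 13 at an unadjusted p below 0.05, and 5 among 88 after it (5.68%). In the rest of chromosome 1, 51 of 3243 genes tested were called at 10 °C (1.57%), and in the rest of chromosome 2 46 of 2626 (1.75%). The nearest gene before the chromosome 1 run that was called at 28 °C was LOC_Os01g08660. LOC_Os01g08660 stood at 544.5 in the tolerant and 2132 in the sensitive line at 10 °C, and at 913 in the tolerant and 2075 in the sensitive line at 28 °C, with a log2 difference of -1.97 ± 0.31 (SE) at 10 °C (deposited Wald test, adjusted p = 4.07e-08).

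No gene just inside or just outside the ends of the ranges was called between the lines, though LOC_Os01g08710 had no adjusted p at 10 °C. Just outside chromosome 1, LOC_Os01g08700 stood at 23628 in the tolerant and 23534 in the sensitive line at 10 °C, and LOC_Os01g09660 at 44.9 and 76.8. Just inside, LOC_Os01g08710 and LOC_Os01g09650 had means over all libraries of 4.35 and 6.19. On chromosome 2, LOC_Os02g05330 outside had log2 differences of -0.29 ± 0.25 at 10 °C and -0.23 ± 0.25 (SE) at 28 °C in the authors' deposited table, and LOC_Os02g05340 inside had 0.32 ± 0.19 and 0.02 ± 0.19. At the other end LOC_Os02g06650 inside had 0.29 ± 0.26 at 10 °C and 0.01 ± 0.25 at 28 °C, and LOC_Os02g06660 outside had a mean of 9.04 normalised counts. The lowest mean kept was 1.15 (LOC_Os02g06160) and the highest left out was 0.919 (LOC_Os02g06560).

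Called at neither temperature were 132 members, 47 on chromosome 1 and 85 on chromosome 2. The 119 of them with an adjusted p at 10 °C had log2 differences from -4.72 to 1.99 in the authors' deposited table, 79 of them within 0.5 of 0, and the other 13 had no adjusted p there. Among them are members with many reads. LOC_Os02g06640 stood at 40973 in the tolerant and 66199 in the sensitive line at 10 °C, and at 61352 in the tolerant and 62646 in the sensitive line at 28 °C, with a log2 difference at 10 °C of -0.69 ± 0.39 (SE) that did not pass (deposited Wald test, adjusted p = 0.462). LOC_Os02g05340 likewise missed the threshold in the cold (deposited Wald test, adjusted p = 0.481), at 6415 in the tolerant and 5137 in the sensitive line.

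The cold itself changed the members about as often as other genes. In tolerant roots 56 of 157 members tested passed in the authors' deposited table (35.7%, against 40.0% of all genes tested), 36 rising and 20 falling, where 20.3% of all genes rose and 19.7% fell. In sensitive roots 67 of 157 passed (42.7%, against 44.5% of all genes), 40 rising and 27 falling, where 22.8% of all genes rose and 21.8% fell. By chromosome the shares were 37.1% on chromosome 1 and 34.7% on chromosome 2 in tolerant roots, and 51.6% and 36.8% in sensitive roots. The median log2 change of the members was 0.06 in the tolerant and 0.18 in the sensitive line, and that of all genes tested was -0.08 and -0.03. Called in both lines were 40 members, 71.4% of the tolerant and 59.7% of the sensitive calls, against 79.8% and 71.7% over all genes. Of these 27 rose in both, 13 fell in both and 0 went opposite ways. Over all genes, 8370 were called in both lines, of which 4330 rose in both, 4030 fell in both and 10 went opposite ways.

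LOC_Os01g09020 had the largest called rise among chromosome 1 members with a mean of at least 20, to 17504 normalised counts at 10 °C against 543 at 28 °C in tolerant roots, and to 15806 against 323 in sensitive roots. The authors' deposited table gives it log2 changes of 5.01 ± 0.49 in tolerant and 5.61 ± 0.49 (SE) in sensitive roots (Wald test, adjusted p = 1.95e-22 and 4.23e-28). On chromosome 2, LOC_Os02g06470 rose to 165 at 10 °C against 2.85 at 28 °C in tolerant roots. In sensitive roots it rose to 298 normalised counts at 10 °C against 3 reads at 28 °C, a ratio of 233 (95% exact counting interval 79.1 to 1132). The gene beside it, LOC_Os02g06480, rose to 3156 against 474.5 in tolerant roots and to 3279 against 462 in sensitive roots. These 3 genes were called between the lines at neither temperature.

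Among the members with the most reads or the largest called rises, another 6 rose in both lines. LOC_Os02g05630 stood at 8148 at 10 °C against 1942 at 28 °C in tolerant roots and at 8121 against 1950.1 in sensitive roots, a log2 rise by 2.07 ± 0.31 and 2.06 ± 0.31 (SE), per the authors' deposited table. In the authors' deposited table LOC_Os02g05450 changed by a log2 of 2.22 in the tolerant line and 2.02 in the sensitive line, and LOC_Os02g06390 by 1.91 and 2.08. There LOC_Os01g09120 changed by 2.42 in the tolerant and 1.91 in the sensitive line, and LOC_Os01g09300 by 2.63 and 1.49. All 4 passed in both lines. LOC_Os01g09320, among the members with the most reads, stood at 9112 at 10 °C against 3894 at 28 °C in tolerant roots and at 9840 against 4528 in sensitive roots. LOC_Os01g09100 rose in sensitive roots, with a log2 change of 4.84 ± 1.06 (SE; deposited Wald test, adjusted p = 3.26e-05), and did not pass in tolerant roots, with 1.36 ± 1.10.

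The largest called falls on chromosome 1, under the same minimum mean, included LOC_Os01g08820, with 3.91 normalised counts at 10 °C against 81.8 at 28 °C in tolerant roots and 8.32 against 70.6 in sensitive roots, and LOC_Os01g09580, with 211 against 818 and 97.8 against 923. On chromosome 2 LOC_Os02g05530 stood at 5.13 at 10 °C against 57.6 at 28 °C in tolerant roots and at 12.7 against 72.9 in sensitive roots. LOC_Os02g05890 stood at 5.06 against 47.5 in tolerant roots and at 13.8 against 56.5 in sensitive roots, and LOC_Os02g05900 at 96.9 against 331 and at 96.0 against 435. All of these falls passed in both lines in the deposited Wald test. LOC_Os02g06380 fell in tolerant roots, with a log2 change of -1.98 (deposited Wald test, adjusted p = 0.00886) and did not pass in sensitive roots, with -0.71 ± 0.64 (SE). LOC_Os01g09540 fell in sensitive roots, with a log2 change of -3.16 (deposited Wald test, adjusted p = 0.00721) and did not pass in tolerant roots, with -1.01 ± 1.04.

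Of the 29 members called between the lines, 7 were also called in the cold response of tolerant roots (24.1%, against 40.0% of all genes), 14 in that of sensitive roots (48.3%, against 44.5%), and 12 in neither (41.4%, against 47.4%). No test was made of these shares. LOC_Os02g06150 and LOC_Os02g05940 are of the last kind, with log2 cold changes of 0.10 ± 0.55 and -0.43 ± 0.44 in tolerant roots and -0.03 ± 0.51 and -0.37 ± 0.39 (SE) in sensitive roots, per the authors' deposited table. The cold responses share their 28 °C libraries with the comparison on which the runs were picked.

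The responses of the lines to cold were compared directly, as the difference of both log2 responses over the root of their summed squared SEs. This derived Wald test passed at 4 of 157 members (2.55%, against 0.622% of all 26199 genes tested), all on chromosome 1. Of these 1 was more positive in tolerant roots (0.214% of all genes) and 3 were more negative (0.408%). On chromosome 2 it passed at 0 of 95 members, with 10 at an unadjusted p below 0.05. It uses the 28 °C libraries too and is therefore given as a description of the members.

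LOC_Os01g08890 stood at 151 normalised counts at 10 °C against 311 at 28 °C in tolerant roots and rose to 4929 against 1488 in sensitive roots, a difference of -2.77 ± 0.67 (SE; derived Wald test, adjusted p = 0.0129). LOC_Os01g09450 rose in sensitive roots, to 145 at 10 °C against 11.0 at 28 °C, and stood at 204 against 107 in tolerant roots, a difference of -2.79 ± 0.70 (derived Wald test, adjusted p = 0.0196). In both genes the sensitive line had the more positive response. LOC_Os01g09470 fell in tolerant roots to 0 reads at 10 °C against 54.5 normalised counts at 28 °C, at least 32.9-fold by the floor over the group, and stood at 10.3 against 17.9 in sensitive roots, a fitted difference of -7.27 ± 1.76 (derived Wald test, adjusted p = 0.0131). The fitted size depends on how the fit treats a group without reads. LOC_Os01g09280 rose in both lines, to 922 against 193 in tolerant and to 455 against 233 in sensitive roots, with the larger rise in tolerant roots (1.29 ± 0.35; derived Wald test, adjusted p = 0.0445).

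**Figure D5:**
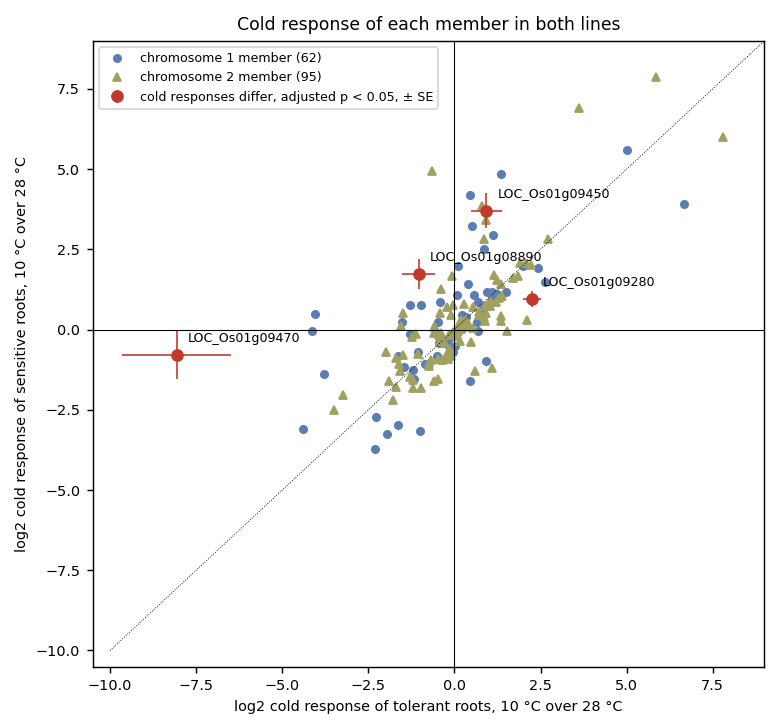
Log2 cold response, 10 °C over 28 °C, of tolerant roots (x axis) and sensitive roots (y axis) for the 157 members tested in both, with the dotted line marking equal responses. The 4 members whose responses differed at an adjusted p of 0.05 are drawn with ± SE bars, and 3 of them lie above the line, where the sensitive roots had the more positive response.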

How the data were processed

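The data were the authors' 4 deposited comparison tables; per the file headers they hold the output columns of DESeq2. The mean per gene is a signal deposited by the authors, counts divided by size factors and averaged over all 8 libraries. The log2 fold changes and SEs, the score (Wald statistic) and each p-value with its Benjamini-Hochberg adjustment are also as deposited by the authors. Bowtie 0.12.7 is named in the submitters' processing notes, while the names given to the tables point to STAR; which made the values, the build, the annotation, the read counter and the handling of reads with mismatches or several matches were not named in the sources used here. Libraries were poly-A RNA read as single ends of 50 bp, per the labels' protocols. Nothing beyond the words for biological replicate says how replicates were separated. The p-values thus weigh a difference against the fitted spread between these libraries, each a pool of 4 plants, and not between single plants.

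With the mean and the fold changes, the level of each group was computed in Python 3.11.15 and pandas 2.3.3. Size factors came from genes seen as 1 read in 1 library. Reads of a low group were its level times its summed size factors, taken as 0 below 0.6. Intervals and floors cover counting error only. Called means an adjusted p below 0.05, and members were only looked up in tests over all genes. Members, ranges and lists were chosen with earlier results of these data known. The genes named are all members called between the lines or in the derived test, the 3 of highest mean per run, those just inside and outside each end, and the 3 largest called rises and falls per run and line with a mean of at least 20; flanks and inner parts were added after seeing the values. Alternatives tried were other thresholds, minimum means, adjustments and SEs. The number of IDs found in the reference gene table was 0.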

Additional observations from a re-analysis of the deposited data

Results flagged for a closer look

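For 4 chromosome 1 members the cold response itself differed between the lines in the derived Wald test. The differences in log2 cold response, tolerant minus sensitive, were -2.77 for LOC_Os01g08890, 1.29 for LOC_Os01g09280, -2.79 for LOC_Os01g09450 and -7.27 for LOC_Os01g09470. None of the 4 calls held when an adjusted p below 0.01 was required. The shoot photosynthesis loci had a summed level of 1467 in the tolerant and 4093 in the sensitive line at 10 °C. Much of each sum came from its highest single locus, at 918 in the tolerant and 2831 in the sensitive line at 10 °C. The root transporter loci were also lower in tolerant roots there, at 4135 against 6875 in sensitive roots. Of the 4 genes, LOC_Os01g08890 and LOC_Os01g09470 had the lower level in tolerant roots at 10 °C, and LOC_Os01g09280 and LOC_Os01g09450 the higher level. The part of the shoot and root loci in these differences was not tested.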

How the results depend on the processing

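The 6 counts of called members were recomputed with calls at an adjusted p below 0.01, with calls of at least 2-fold, with a minimum mean of 10 or none, and, but for the derived test, with p-values adjusted over every gene with a p. The derived test was instead run with SEs from the line comparisons and adjusted over genes with a mean of at least 10. Over both runs, every count stayed within 1.5 times its value under these alternatives except the derived test, which fell to 0 calls at an adjusted p below 0.01. By run, the 14 calls of chromosome 1 at 10 °C became 9 at an adjusted p below 0.01. Among 690 recomputed calls of named genes, 662 stayed on their side of the threshold, 28 lost the call and 0 changed direction. No alternative altered a log2 value, so a change of direction was not possible. The stricter threshold and the 2-fold minimum could only remove calls, so comparisons not called could not move under them. No paired analysis was possible because the tables carry no values per library, and for the same reason no library was left out in turn. The 2 libraries per group and low counts limit the smaller members: 13 had no adjusted p at 10 °C.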

Other observations

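The 3 members given here fall outside the rule for named genes and were chosen after their values were seen. LOC_Os01g09410 had 0 reads in tolerant roots at both temperatures, against 5.28 normalised counts in sensitive roots at 10 °C and 16.0 in sensitive roots at 28 °C. Its log2 difference of -4.72 ± 2.05 (SE) at 10 °C did not pass in the authors' deposited table (Wald test, adjusted p = 0.259). LOC_Os02g06060 had 1 read in tolerant roots and 11.8 normalised counts in sensitive roots at 10 °C, and 3 reads in tolerant roots and 12.9 normalised counts in sensitive roots at 28 °C (deposited Wald test at 10 °C, adjusted p = 0.226). LOC_Os02g06410, with a mean of 15.2, was nearly silent at 28 °C in both lines. It stood at 33.1 normalised counts in tolerant roots at 10 °C against 0 reads at 28 °C, at least 27.1-fold higher by the floor over the group. In sensitive roots it stood at 27.2 at 10 °C against 1 read at 28 °C, a ratio of 62.8 (95% exact counting interval 10.7 to 2536). Both rises passed in the authors' deposited table (Wald test, adjusted p = 0.000155 in tolerant and 0.00379 in sensitive roots).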
